A study of Mus musculus with 12 samples.

Results

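Stem cells of the hair follicle and cells of the hair germ from young mice were compared between early anagen, the start of hair growth, and telogen, the resting phase. The comparison rests on 6 of the 12 RNA sequencing libraries of the series, chosen by their labels, with 3 libraries per stage. The other 6, from old mice, entered the fit so that all groups shared an estimate of the spread, and were used to test whether a response differed with age. All mice were labelled K15-EGFP Tg/+, meaning that a keratin 15 promoter drove a green fluorescent protein, and cells were sorted from skin as EGFP(Hi)/ITGA6(Hi)/ScaI(-). Telogen mice had no treatment, and early anagen was reached after hair depilation, so the growth stage and the plucking itself cannot be told apart. Ages in weeks, and whether the 3 libraries of a group came from separate mice, are not given in the sources used. The p-values therefore measure the spread between these libraries, part of which may be technical. The deposited columns name the stages pk and nonpk, and reading pk as the depilated stage is an inference on which every direction below rests.

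Hair follicles pass through repeated rounds of growth, regression and rest. In telogen the stem cells of the bulge and the smaller hair germ beneath them are mostly quiet, held there in part by signals from the surrounding dermis and fat. At the onset of anagen the hair germ divides first, under signals from the dermal papilla, a cluster of specialised fibroblasts, and the new epithelium grows down into the dermis. Removing the club hairs by depilation starts this round in all plucked follicles at about the same time.

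Early anagen cells had higher transcript levels of 22 of 31 tested genes of nucleotide synthesis and of 12 of 23 for charging tRNA. Levels were lower for 14 of 21 clock genes and for 11 of 19 Klf and Sp transcription factors. Among all genes tested, 12.6% were higher and 12.4% lower. Ribonucleotide reductase (Rrm1) rose from a mean of 50.2 ± 19.2 to 284 ± 19.6 CPM (SD, n = 3 libraries), where CPM is counts per 1000000, scaled with TMM factors. Matrix genes changed in both directions, with collagen XIV (Col14a1) rising from 3.34 ± 0.109 to 155 ± 16.6 CPM and the TGF-beta binding protein Ltbp2 falling from 397 ± 61.5 to 43.9 ± 17.6 CPM. Within the Myc family of growth regulators, Mycn rose and Myc fell. Among noncoding genes the nuclear RNA Malat1 fell from 19513 ± 325 to 8382 ± 1630 CPM.

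Library totals of the 6 young libraries ran from 7291178 to 8364224 counts, and 16011 of 55359 genes had enough counts to be tested. Along the first principal component, which held 52.5% of the variance of the 6 libraries, the stages separated. Of the genes tested, 4003 (25.0%) passed an adjusted p of 0.05 in edgeR's quasi-likelihood test, with 2010 (12.6%) higher and 1993 (12.4%) lower in early anagen. These percentages are the background for each count below, beside a median log2 fold change of all genes tested of -0.05. The 3 libraries of one stage all lay above the 3 of the other for 6548 genes (40.9%), and for 3852 of the 4003 called genes. Apart from a fixed set, the rule that named genes, given with the data processing, required this. For genes named by it, a lack of overlap between the stages is therefore a condition of the choice and no added support. Every log2 fold change is early anagen minus telogen, with its standard error (SE), and every adjusted p is from edgeR over all genes tested. Where no member of a list described below was called in a direction, the same held for DESeq2 and limma voom, unless counts are given. In such a list none was at an unadjusted p of 0.05 in edgeR either, again unless counts are given. Mki67, a marker of dividing cells, stood at 574, 359.9 and 92.7 CPM in telogen and 2075, 2384 and 2132 CPM in early anagen. Telogen replicate 1 was the highest of its group, and without it 1889 genes were higher and 1824 lower.

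The gate was checked against markers. The reporter gene Krt15 was at 5675, 5130.3 and 7319.6 CPM in telogen and 2396, 2628 and 1964 CPM in early anagen (log2 fold change -1.38, SE 0.16, adjusted p = 1e-05). Ly6a, which encodes Sca-1, had 14 counts in all 3 telogen libraries together and 1 in early anagen. Itga6, the other sort marker, was at 357, 296 and 279 CPM in telogen and 307, 331 and 233 CPM in early anagen and did not pass the test (log2 fold change -0.10, SE 0.15, adjusted p = 0.7). Krt79, a keratin of the upper follicle, was nonetheless abundant, at 1302, 3641 and 2758 CPM in telogen and 1686, 1345 and 1119 CPM in early anagen. The summed level of the 28 upper follicle and sebaceous markers ran from 4650 to 8000 CPM in telogen and from 3590 to 5000 CPM in early anagen, with 1 higher and 5 lower of 24 tested (10 lower with no filter and 8 without early anagen replicate 1). Of the 23 markers of differentiated epidermis, all tested, 3 were higher and 5 lower, and their sums ran from 2700 to 6140 CPM in telogen and from 2500 to 4380 CPM in early anagen. The count higher was 8 with no filter and 5 without telogen replicate 2. The count lower was 9 with no filter and, without telogen replicate 1, 2 or 3 in turn, 8, 1 and 3, and 3 without early anagen replicate 2. Flg, which encodes the barrier protein filaggrin, was at 21.1, 15.9 and 1.94 CPM in telogen and 56.8, 215 and 203 CPM in early anagen (log2 fold change 3.61, SE 1.00, adjusted p = 0.013). Its relative Hrnr was at 4.38, 1.80 and 4.48 CPM in telogen and 16.5, 47.2 and 63.3 CPM in early anagen (log2 fold change 3.56, SE 0.74, adjusted p = 0.0019), and for both the stages did not overlap. Sbsn, a secreted epidermal protein, was lower, at 201, 428 and 439 CPM in telogen and 142, 156 and 200.3 CPM in early anagen (log2 fold change -1.10, SE 0.25, adjusted p = 0.0037). The desmosomal cadherin Dsg1a was at 247, 753 and 511 CPM in telogen and 168, 225 and 197 CPM in early anagen (log2 fold change -1.35, SE 0.35, adjusted p = 0.0091) and lost the call without telogen replicate 2 (adjusted p = 0.07).

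The 16 fibroblast and dermal papilla markers summed to 150 to 204 CPM in telogen and 275 to 603 CPM in early anagen. Without Fbln1 the sums were 66.8 to 92.9 CPM and 60.2 to 199 CPM and overlapped. Of the 16, 8 were tested and 3 were higher, Fbln1 in every fit and Lef1 and Dcn not in every fit (adjusted p up to 0.22 and 0.28), while 5 had no counts in any of the 6 libraries. The defining marker Col1a1 stood at 3.77, 8.35 and 1.81 CPM in telogen and 8.41, 7.88 and 18 CPM in early anagen. None of the 15 tested immune markers passed the test in edgeR, with DESeq2 or with limma voom, while 2 were higher and 1 lower at an unadjusted p of 0.05 (of 32 in the table), and their defining gene Ptprc stood at 0.487, 5.52 and 0.847 CPM in telogen and 0, 5.08 and 2.01 CPM in early anagen. Vessel and mural cell markers were near 0 in both stages, with sums of 0.730 to 3.72 CPM in telogen and 6.19 to 13.7 CPM in early anagen, and 2 of 3 tested were higher. Markers of the inner root sheath and hair shaft gave 5 higher of 10 tested (3 without telogen replicate 1, and 2 without telogen replicate 3 or early anagen replicate 3). None of the 10 was called lower in edgeR, but 3 were lower at an unadjusted p of 0.05, and 1 each with DESeq2 and limma voom. The list therefore did not rise as a whole. All 23 markers of the bulge, the hair germ and the cell cycle were tested, with 10 higher and 7 lower, both above the background given earlier. The higher ones included Cdh3 and Mki67. Of the lower, the bulge marker Krt24 was at 103, 109 and 170 CPM in telogen and 8.54, 31.9 and 9.44 CPM in early anagen (log2 fold change -2.94). Col17a1 was lower too (log2 fold change -1.40). A shift between bulge and germ cells was not tested. In bulk samples, fewer cells of a type and less RNA per cell cannot be told apart.

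**Figure D1:**
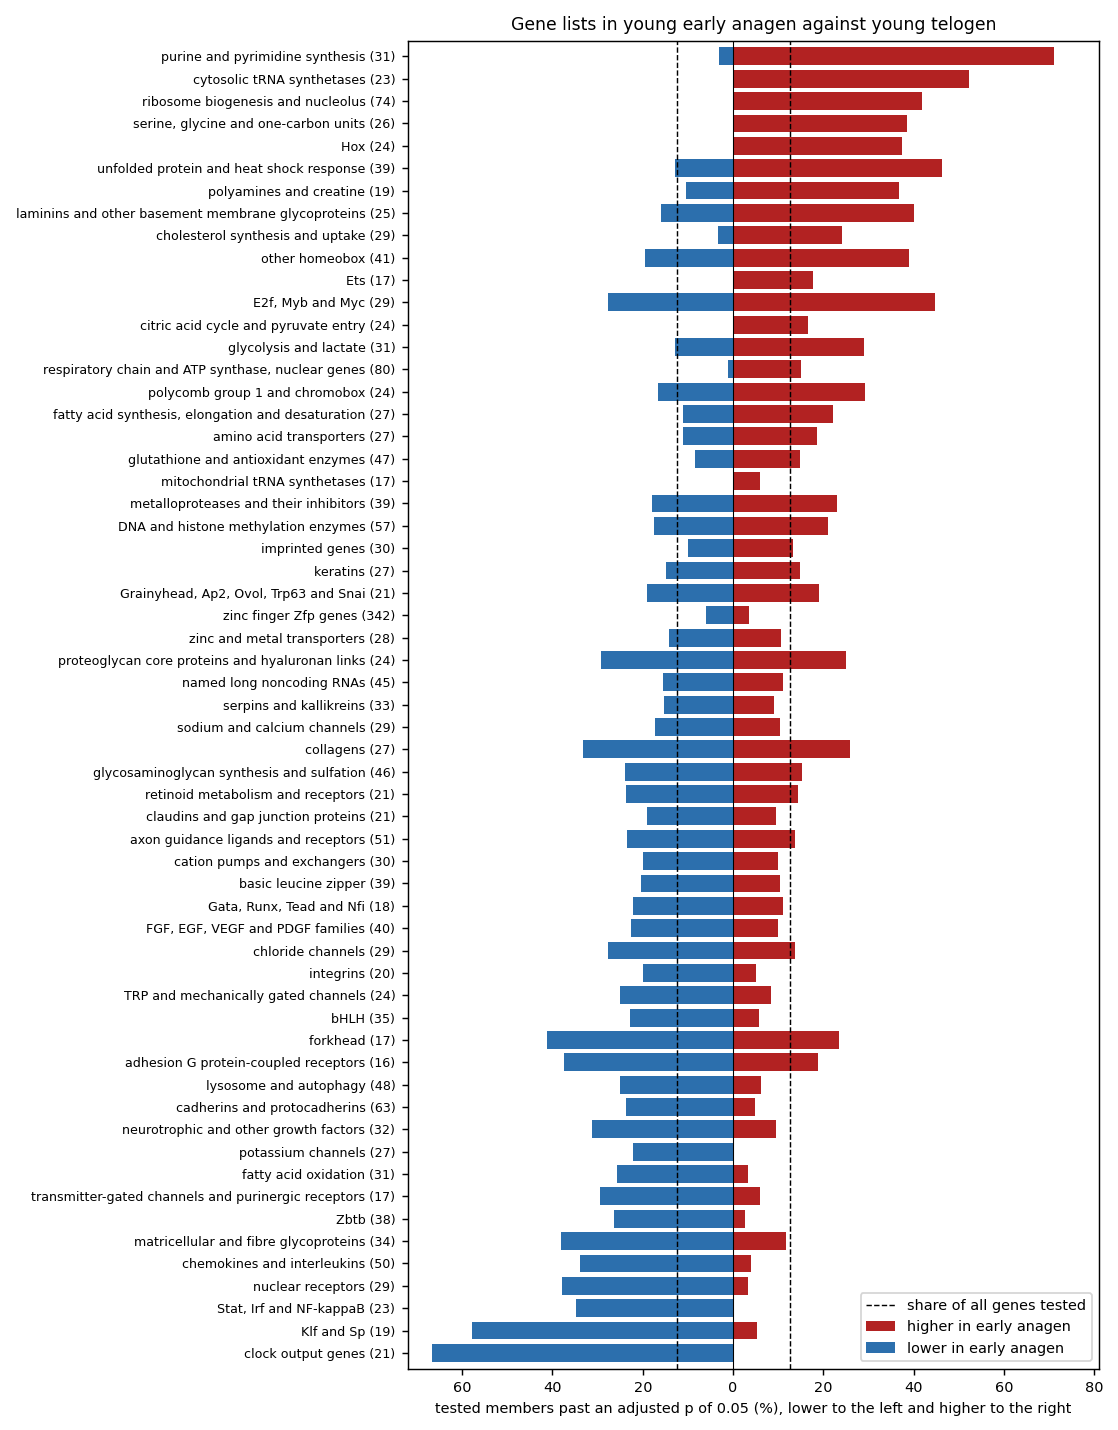
Share of the tested members of each gene list that passed an adjusted p of 0.05, with members higher in early anagen to the right and lower members to the left (number tested in brackets, lists with at least 15 tested members), and dashed lines at 12.6% and 12.4%, the shares among all genes tested. Nucleotide synthesis and tRNA synthetases stand farthest to the right, and clock genes and the Klf and Sp family farthest to the left.

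Genes that make the building blocks of DNA and RNA had the largest share of higher members among the lists with at least 15 tested members. Of 32 genes of purine and pyrimidine synthesis in the table, 31 were tested, 22 were higher and 1 was lower, with a median log2 fold change of 1.03. The largest increases of the list were in ribonucleotide reductase, which turns ribonucleotides into deoxyribonucleotides. Its large subunit Rrm1 stood at 67.9, 53 and 29.8 CPM in telogen replicates 1 to 3 and 274, 271 and 306 CPM in early anagen replicates 1 to 3 (log2 fold change 2.50, SE 0.22, adjusted p = 1.4e-06). All 3 early anagen libraries lay at about the same level, while telogen replicate 3 was the lowest. The small subunit Rrm2 was at 32, 15.4 and 26.3 CPM in telogen and 120, 123 and 170.2 CPM in early anagen (log2 fold change 2.48, SE 0.24, adjusted p = 2.8e-06), again with no overlap. Thymidine kinase Tk1, which salvages thymidine, was at 24.6, 15 and 5.20 CPM in telogen and 77.5, 68.3 and 90.7 CPM in early anagen (log2 fold change 2.40, SE 0.40, adjusted p = 0.00028). Cad, the enzyme that opens pyrimidine synthesis, was at 97.9, 51.8 and 54.6 CPM in telogen and 304, 303 and 456 CPM in early anagen (log2 fold change 2.38, SE 0.24, adjusted p = 3.7e-06). The higher members also held purine synthesis, with log2 fold changes of 1.34 (SE 0.21) for Gart and 1.51 (SE 0.20) for Pfas, both picked after their values were seen. The exception was Tk2, the mitochondrial thymidine kinase, which was lower (log2 fold change -1.10, SE 0.32, adjusted p = 0.02). Its adjusted p reached 0.08 among the fits without telogen replicate 3, early anagen replicate 2 or early anagen replicate 3, in which it lost the call.

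The folate pathway supplies one-carbon units for these syntheses. Of 27 genes for serine, glycine and one-carbon units, 26 were tested, 10 were higher and none passed in the other direction. Mthfd1l, the mitochondrial enzyme that releases formate, stood at 11, 7.71 and 4.72 CPM in telogen and 38.8, 41.7 and 33.1 CPM in early anagen (log2 fold change 2.28, SE 0.32, adjusted p = 7.2e-05). Thymidylate synthase Tyms was at 24.2, 18.9 and 10.2 CPM in telogen and 64.6, 61.7 and 65.4 CPM in early anagen (log2 fold change 1.85, SE 0.29, adjusted p = 0.00017). The groups overlapped for neither.

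**Figure D2:**
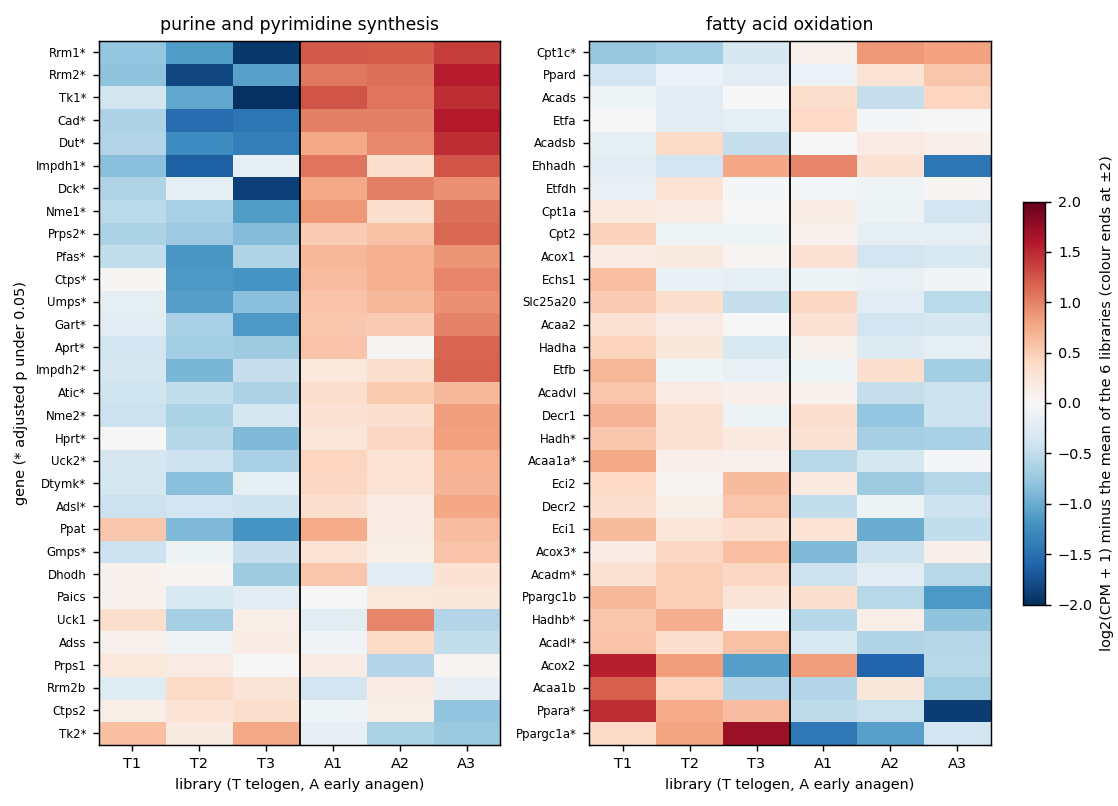
Level of each tested gene of nucleotide synthesis (left) and fatty acid oxidation (right) in every young library, as log2(CPM + 1) minus the mean of the 6 libraries, ordered by log2 fold change. The left panel is mostly blue in the 3 telogen libraries and red in the 3 early anagen libraries for its 22 higher genes, and the lower part of the right panel shows the reverse for its 8 lower genes.

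Protein synthesis needs charged tRNA and newly assembled ribosomes. Of 23 cytosolic tRNA synthetases and their partners tested (of 23 in the table), 12 were higher and none was called lower (median 0.63), and without a library in turn the count of higher members ran from 8 to 12. Glycyl-tRNA synthetase Gars stood at 44.3, 52.1 and 52.6 CPM in telogen replicates 1 to 3 and 144, 152 and 195 CPM in early anagen replicates 1 to 3 (log2 fold change 1.72, SE 0.16, adjusted p = 1.9e-06). Alanyl-tRNA synthetase Aars was at 45.7, 45.9 and 36.5 CPM in telogen and 99.6, 93.8 and 126 CPM in early anagen (log2 fold change 1.32, SE 0.17, adjusted p = 3.7e-05). Vars, which charges valine tRNA, was at 105, 106 and 75.9 CPM in telogen and 219, 213 and 235 CPM in early anagen (log2 fold change 1.22, SE 0.17, adjusted p = 5.3e-05). In each of these 3 genes the lowest early anagen library was above the highest telogen library. Of the 17 mitochondrial tRNA synthetases tested, 1 was higher, Lars2, at 135, 157 and 103 CPM in telogen and 273, 315 and 210.1 CPM in early anagen (log2 fold change 1.02, SE 0.20, adjusted p = 0.00097).

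The promoter windows of Gars and Aars are shown because both hold the letters TGATGNAA, the core of the element that the amino acid response factor Atf4 is known to bind. In RefSeq windows of 250 bases before the start (build GRCm38.p6, both strands searched), these letters stood in 3.5% of all 32851 windows and in 2.4% of the tested genes with a window. They stood in 3 of the 16 tested tRNA synthetase members with a window. Both windows run 5′ to 3′ toward the gene's start, with the match in capitals, which in both is the reverse complement of the searched letters. The window of Gars lies at chr6:55037751-55038000 on the plus strand and that of Aars at chr8:111033592-111033841 on the plus strand. A match is a description of letters and not of binding. Atf4 itself was at 96.7, 111 and 106 CPM in telogen and 127, 102 and 169 CPM in early anagen and did not pass the test (log2 fold change 0.34, SE 0.17, adjusted p = 0.17, chosen after its values were seen), although it passed without early anagen replicate 2.
Gars: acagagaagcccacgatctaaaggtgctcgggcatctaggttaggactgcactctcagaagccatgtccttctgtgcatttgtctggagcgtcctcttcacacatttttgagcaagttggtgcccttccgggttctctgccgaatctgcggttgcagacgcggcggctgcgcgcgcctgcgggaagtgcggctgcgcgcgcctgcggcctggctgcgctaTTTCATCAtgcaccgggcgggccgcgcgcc
Aars: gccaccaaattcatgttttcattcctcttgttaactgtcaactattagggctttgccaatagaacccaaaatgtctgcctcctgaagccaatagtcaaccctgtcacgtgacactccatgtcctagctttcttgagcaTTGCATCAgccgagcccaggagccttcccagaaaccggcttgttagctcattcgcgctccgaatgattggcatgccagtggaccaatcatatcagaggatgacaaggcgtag

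In the nucleolus, where ribosomes are assembled, 31 of 74 tested genes were higher and none was called lower (median 0.61, 74 in the table). The count depended on which libraries were in the fit: it was 18 without telogen replicate 2, 17 without telogen replicate 3 and 15 without early anagen replicate 3. Dyskerin, the pseudouridine synthase of ribosomal RNA encoded by Dkc1, was at 37.3, 38.5 and 32.5 CPM in telogen replicates 1 to 3 and 87.6, 107 and 126 CPM in early anagen replicates 1 to 3 (log2 fold change 1.56, SE 0.22, adjusted p = 7e-05). Nolc1, a nucleolar chaperone of small nucleolar ribonucleoproteins, was at 85.2, 70.8 and 63.5 CPM in telogen and 187, 149.7 and 269 CPM in early anagen (log2 fold change 1.46, SE 0.26, adjusted p = 0.00048). Both had early anagen replicate 3 as the highest library. Nhp2, a partner of dyskerin, stood at 18.1, 29.3 and 24.4 CPM in telogen and 66.4, 49.7 and 77.2 CPM in early anagen (log2 fold change 1.43, SE 0.36, adjusted p = 0.0077).

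Chaperones help proteins fold. Of 39 tested genes of the unfolded protein and heat shock responses, 18 were higher and 5 were lower. The higher ones included residents of the endoplasmic reticulum, such as Hspa5 and Hyou1, and the cytosolic Hsp70 machinery. Hspa8, the constitutive Hsp70, stood at 641, 560.4 and 526 CPM in telogen replicates 1 to 3 and 1194, 1079 and 1395 CPM in early anagen replicates 1 to 3 (log2 fold change 1.09, SE 0.14, adjusted p = 3.3e-05). Calreticulin, Calr, stood at 376, 305 and 186 CPM in telogen and 565, 577 and 709 CPM in early anagen (log2 fold change 1.09, SE 0.21, adjusted p = 0.0012). Among the lower genes were 2 small heat shock proteins, Hspb8 and Hspb1. Hspb8 stood at 116, 166 and 315 CPM in telogen and 27.2, 69.4 and 77.8 CPM in early anagen (log2 fold change -1.78, SE 0.35, adjusted p = 0.0013), with telogen replicate 3 the highest. Hspb1 stood at 66.7, 96.2 and 118 CPM in telogen and 40.2, 39.3 and 45.5 CPM in early anagen (log2 fold change -1.17, SE 0.21, adjusted p = 0.00051). Without telogen replicate 2, 3 members in place of 5 were lower.

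Several enzymes of glycolysis were higher, while the glucose transporter gene Slc2a1 was not called. Of 31 tested genes of glycolysis and lactate handling, 9 were higher and 4 were lower. Hk2, the hexokinase that traps glucose in the cell, stood at 47.2, 59.7 and 61.2 CPM in telogen replicates 1 to 3 and 173, 179.8 and 133 CPM in early anagen replicates 1 to 3 (log2 fold change 1.53, SE 0.19, adjusted p = 1.9e-05). Eno1, an enolase, was at 71.3, 71 and 49.4 CPM in telogen and 221, 190.2 and 178 CPM in early anagen (log2 fold change 1.62, SE 0.18, adjusted p = 1e-05). The groups were far apart for both. Slc2a1 was at 86.3, 84.6 and 56.7 CPM in telogen and 88, 70.6 and 48.2 CPM in early anagen, with overlapping libraries (log2 fold change -0.14, SE 0.22, adjusted p = 0.7). Phosphoglycerate kinase Pgk1 stood at 9.01, 7.71 and 11.4 CPM in telogen and 23.8, 25.9 and 33.1 CPM in early anagen (log2 fold change 1.56, SE 0.28, adjusted p = 0.00054). Reads of such housekeeping genes can be shared with processed copies, so Pgk1 and Gapdh (4.99, 7.58 and 5.08 CPM in telogen and 23.1, 18.2 and 19.2 CPM in early anagen) are uncertain in level. Pdk2, a kinase that closes the gate from pyruvate to the citric acid cycle, was lower, at 42.4, 47.8 and 67.9 CPM in telogen and 15.6, 20.4 and 14.1 CPM in early anagen (log2 fold change -1.66, SE 0.22, adjusted p = 4e-05). Pfkfb2, which sets the level of an activator of glycolysis, was lower as well (log2 fold change -1.12, SE 0.27, adjusted p = 0.0049). Hif1a, the oxygen-responsive regulator of this pathway, was at 182, 145 and 152 CPM in telogen and 200.1, 209 and 139 CPM in early anagen and did not pass (log2 fold change 0.20, SE 0.17, adjusted p = 0.46).

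In mitochondria, 4 of 24 tested genes of the citric acid cycle and pyruvate entry were higher and none was called lower, a share near the background. The nuclear genes of the respiratory chain and ATP synthase gave 12 higher and 1 lower of 80, close to the background share, although 74 of the 80 had a positive log2 fold change (median 0.36, against -0.05 for all genes). Without telogen replicate 3 the higher count was 6. Fatty acid oxidation moved in the opposite direction, with 1 higher and 8 lower of 31 tested (median -0.55). Acadl, the long-chain acyl-CoA dehydrogenase, stood at 112, 95 and 113 CPM in telogen replicates 1 to 3 and 60.7, 49.3 and 50.2 CPM in early anagen replicates 1 to 3 (log2 fold change -1.0, SE 0.16, adjusted p = 0.00022). The lower members included 2 regulators of these enzymes. Ppargc1a, the coactivator PGC-1 alpha, was at 9.50, 13 and 25.8 CPM in telogen and 1.98, 2.81 and 5.16 CPM in early anagen (log2 fold change -2.27, SE 0.49, adjusted p = 0.0023). Ppara, a nuclear receptor for fatty acids, was at 36.5, 21.6 and 19.7 CPM in telogen and 8.54, 8.95 and 2.64 CPM in early anagen (log2 fold change -1.95, SE 0.48, adjusted p = 0.0063). The lower count of this list was 5 without telogen replicate 1, telogen replicate 2 or early anagen replicate 2 and 4 with the young libraries alone.

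Among the called genes of fatty acid and cholesterol synthesis, Scd2 had the largest increase. Scd2, a stearoyl-CoA desaturase that makes monounsaturated fatty acids, stood at 26.9, 24 and 4.72 CPM in telogen replicates 1 to 3 and 326, 374 and 398 CPM in early anagen replicates 1 to 3 (log2 fold change 4.30, SE 0.44, adjusted p = 3.8e-06), a rise of mean FPKM from 3.33 to 69.5. Around it, 6 of 27 tested genes of fatty acid synthesis and desaturation were higher and 3 were lower, and the higher count was 3 without telogen replicate 2 and 3 without early anagen replicate 3. Fads2, a fatty acid desaturase, was at 0.122, 0.257 and 3.99 CPM in telogen and 8.17, 16.7 and 18.7 CPM in early anagen (log2 fold change 3.30, SE 0.99, adjusted p = 0.022), with a log2 fold change of 6.16 without telogen replicate 3. It lost the call without telogen replicate 1, telogen replicate 2, early anagen replicate 2 or early anagen replicate 3 (adjusted p up to 0.077). Acsl1, which activates long-chain fatty acids, was lower, at 54.8, 114 and 72.7 CPM in telogen and 22.5, 37.8 and 29.8 CPM in early anagen (log2 fold change -1.42, SE 0.32, adjusted p = 0.0031). For cholesterol, 7 of 29 were higher and 1, the regulator Insig2, was lower (log2 fold change -1.20, SE 0.23, adjusted p = 0.001). Sc5d, a late enzyme of the pathway, was at 11.6, 7.71 and 2.66 CPM in telogen and 25, 30.1 and 39.6 CPM in early anagen (log2 fold change 2.11, SE 0.41, adjusted p = 0.00097). The higher count was 12 with DESeq2, 13 with limma voom, 12 with no filter and 11 without telogen replicate 1.

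Amino acid carriers as a group stood near the background. Of 27 tested transporters, 5 were higher and 3 were lower (5 lower with no filter or with a replicate block). The cationic amino acid carrier Slc7a2, which takes up arginine and lysine, stood at 69.8, 41.6 and 17.4 CPM in telogen replicates 1 to 3 and 278, 402 and 719.6 CPM in early anagen replicates 1 to 3 (log2 fold change 3.44, SE 0.40, adjusted p = 1e-05). It spread over a wide range in both stages. Its relative Slc7a1 was at 27.3, 26.5 and 29.5 CPM in telogen and 83.6, 122 and 159 CPM in early anagen (log2 fold change 2.13, SE 0.23, adjusted p = 6.4e-06). Slc38a4, a carrier of neutral amino acids whose gene is imprinted, was at 26.4, 25.4 and 14 CPM in telogen and 107, 117 and 163 CPM in early anagen (log2 fold change 2.55, SE 0.42, adjusted p = 0.00027). The glutamine carrier Slc1a5 was at 3.65, 4.50 and 4.23 CPM in telogen and 25.2, 17.2 and 15.7 CPM in early anagen (log2 fold change 2.23, SE 0.36, adjusted p = 0.00025). Slc43a1, a carrier of branched-chain amino acids, was lower, at 40.1, 44.8 and 42.6 CPM in telogen and 2.97, 13.8 and 12.8 CPM in early anagen (log2 fold change -2.11, SE 0.46, adjusted p = 0.0028).

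Polyamines, small cations made from arginine and needed for growth, and creatine, a store of energy-rich phosphate, share the next list. Of 19 tested genes for polyamines and creatine, 7 were higher and 2 were lower. Spermine synthase Sms was at 12.2, 11.8 and 11.6 CPM in telogen replicates 1 to 3 and 58.4, 47.6 and 59.5 CPM in early anagen replicates 1 to 3 (log2 fold change 2.21, SE 0.28, adjusted p = 3e-05), with nearly equal telogen libraries. Spermine oxidase Smox was at 3.53, 6.68 and 1.81 CPM in telogen and 22.6, 23.9 and 36.5 CPM in early anagen (log2 fold change 2.79, SE 0.55, adjusted p = 0.0011). Creatine genes were split. The cytosolic creatine kinase Ckb was higher, at 0, 0.257 and 0.242 CPM in telogen and 13.1, 15 and 17.7 CPM in early anagen (log2 fold change 6.40, SE 1.11, adjusted p = 4e-04). The creatine transporter Slc6a8 was lower, at 147, 150.1 and 212 CPM in telogen and 71.1, 67.6 and 67.9 CPM in early anagen (log2 fold change -1.30, SE 0.18, adjusted p = 7e-05). The mitochondrial kinase Ckmt1 was lower too, at 147, 155 and 177 CPM in telogen and 118, 112 and 88.7 CPM in early anagen (log2 fold change -0.59, SE 0.15, adjusted p = 0.008).

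Redox genes as a group stood near the background, with single genes changed in each direction. Gstm1, a glutathione transferase, stood at 144, 181 and 171 CPM in telogen replicates 1 to 3 and 48, 49.8 and 54 CPM in early anagen replicates 1 to 3 (log2 fold change -1.71, SE 0.16, adjusted p = 2e-06), with the libraries of each stage close together. Catalase, Cat, was at 230, 211 and 158 CPM in telogen and 149, 109 and 73.7 CPM in early anagen (log2 fold change -0.86, SE 0.21, adjusted p = 0.0061). Thioredoxin reductase Txnrd1 was higher instead, at 43.6, 24.1 and 19 CPM in telogen and 120.1, 118 and 119.6 CPM in early anagen (log2 fold change 2.04, SE 0.38, adjusted p = 0.00072), with 3 nearly equal early anagen libraries. The list of 47 tested antioxidant genes had 7 higher and 4 lower. The higher count was 4 without telogen replicate 2, telogen replicate 3 or early anagen replicate 1 and with the young libraries alone, and 3 without early anagen replicate 3. The lower count was 7 with limma voom and 9 without early anagen replicate 1.

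Retinoic acid, made from vitamin A, patterns skin epithelium. Of 21 tested genes of this pathway, 3 were higher and 5 were lower. Cyp26b1, which degrades retinoic acid, was at 32.5, 31.9 and 40.4 CPM in telogen and 1.36, 4.41 and 0.881 CPM in early anagen (log2 fold change -3.98, SE 0.53, adjusted p = 4.2e-05). Aldh1a1, which makes it, was at 79.7, 38.7 and 40.8 CPM in telogen and 10.6, 3.88 and 1.01 CPM in early anagen (log2 fold change -3.35, SE 0.61, adjusted p = 0.00061). Neither gene had overlapping libraries. The receptor gene Rara moved the other way, at 24.8, 37.2 and 35.5 CPM in telogen and 91.4, 118 and 184 CPM in early anagen (log2 fold change 2.01, SE 0.30, adjusted p = 0.00013).

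Lysosome and autophagy genes gave 12 lower and 3 higher of 48 tested, and the lower count was 7 without early anagen replicate 3. Mitf, a transcription factor of this gene set and of melanocytes, stood at 117, 110.2 and 140 CPM in telogen replicates 1 to 3 and 27.8, 26.5 and 19.2 CPM in early anagen replicates 1 to 3 (log2 fold change -2.32, SE 0.21, adjusted p = 1.7e-06). Its relative Tfeb was at 25.7, 23 and 39.3 CPM in telogen and 18.1, 8.15 and 7.93 CPM in early anagen (log2 fold change -1.36, SE 0.34, adjusted p = 0.0071). In telogen, Mitf made up most of the summed level of the melanocyte markers, which was 130 to 156 CPM in telogen and 50.0 to 58.9 CPM in early anagen. The defining melanocyte marker Dct was low in both stages and not called, at 4.50, 7.19 and 5.57 CPM in telogen and 6.43, 9.35 and 25.3 CPM in early anagen. The lysosomal protease gene Ctsf was at 52.2, 70.1 and 73.6 CPM in telogen and 29.1, 21.8 and 17.1 CPM in early anagen (log2 fold change -1.53, SE 0.22, adjusted p = 9.7e-05). Ctsh, another, was at 33, 43.9 and 38.6 CPM in telogen and 19.4, 12.2 and 12.7 CPM in early anagen (log2 fold change -1.38, SE 0.23, adjusted p = 0.00032). Both were lower without overlap.

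Collagens, which give the matrix its tensile strength, changed in both directions. Of 44 collagen genes in the table, 27 were tested, 7 were higher and 9 were lower, both above the background. The fibril-associated collagen Col14a1 stood at 3.41, 3.21 and 3.39 CPM in telogen replicates 1 to 3 and 169.8, 137 and 159 CPM in early anagen replicates 1 to 3 (log2 fold change 5.53, SE 0.24, adjusted p = 4.1e-10). Its libraries were close together within each stage. The fibrillar Col5a1 was at 28.6, 16.8 and 13.2 CPM in telogen and 133, 122 and 117 CPM in early anagen (log2 fold change 2.66, SE 0.30, adjusted p = 8.4e-06). Basement membrane collagen IV was higher too. Col4a1 was at 108, 105 and 74.4 CPM in telogen and 399, 422 and 649 CPM in early anagen (log2 fold change 2.35, SE 0.28, adjusted p = 1.6e-05). Its partner Col4a2, read from the same promoter region, was at 128, 72.3 and 84 CPM in telogen and 213, 203 and 307 CPM in early anagen (log2 fold change 1.34, SE 0.24, adjusted p = 0.00054). Among the lower collagens, the network-forming Col8a2 stood at 101, 102 and 131 CPM in telogen and 16.6, 31 and 7.80 CPM in early anagen (log2 fold change -2.59, SE 0.32, adjusted p = 2.2e-05). The fibril-associated Col12a1 was at 507, 422 and 546 CPM in telogen and 107, 271 and 96.6 CPM in early anagen (log2 fold change -1.64, SE 0.29, adjusted p = 0.00054), with early anagen replicate 2 highest of its group. Col20a1, of the same class, was at 20.6, 24.7 and 18.3 CPM in telogen and 6.56, 1.74 and 1.13 CPM in early anagen (log2 fold change -2.74, SE 0.54, adjusted p = 0.0011). The fibroblast marker sums given above were higher in the same libraries but overlapped without Fbln1, and their part in the result was not tested. Col1a1, the main fibroblast collagen, did not pass the test (log2 fold change 1.30, SE 0.63, adjusted p = 0.15).

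**Figure D3:**
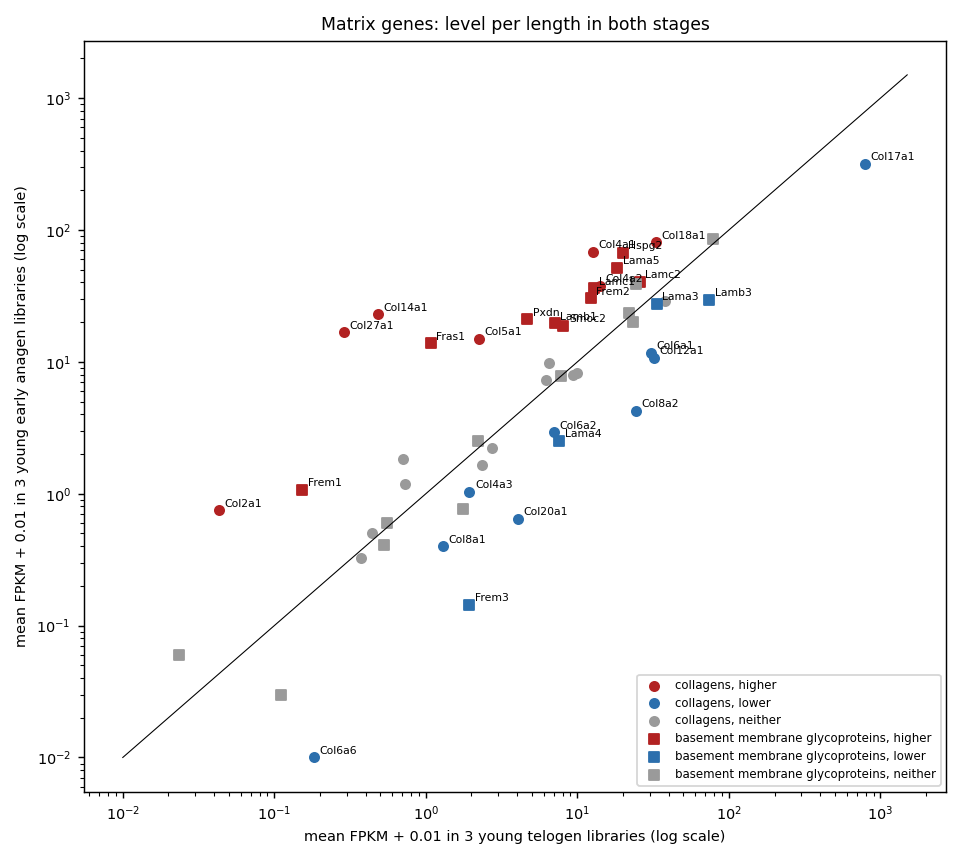
Mean FPKM (a level per gene length) plus 0.01 of each tested collagen (circles) and laminin or other basement membrane glycoprotein (squares) in young telogen (x axis) and young early anagen (y axis), on log axes, with named genes past an adjusted p of 0.05 and a line of equal level. Col14a1 and Col27a1 lie far above the line from a level under 1 FPKM in telogen, and Col8a2 and Col20a1 lie below it.

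Basement membrane glycoproteins other than collagen gave 10 higher and 4 lower of 25 tested. Laminins, cross-shaped trimers of an alpha, a beta and a gamma chain, were among both. The alpha chain Lama5 was at 203, 189 and 244 CPM in telogen replicates 1 to 3 and 486, 578 and 644 CPM in early anagen replicates 1 to 3 (log2 fold change 1.43, SE 0.14, adjusted p = 3.3e-06). The gamma chain Lamc1, with which it pairs, was at 109.8, 119 and 95.3 CPM in telogen and 304, 282 and 277 CPM in early anagen (log2 fold change 1.41, SE 0.17, adjusted p = 1.3e-05). The beta chain Lamb1, which can join them, was at 114, 67 and 34.4 CPM in telogen and 159, 185 and 218 CPM in early anagen (log2 fold change 1.38, SE 0.43, adjusted p = 0.025). Lamb1 lost the call with DESeq2 and without telogen replicate 2, telogen replicate 3 or early anagen replicate 3, with an adjusted p of up to 0.092. Lamb3, a beta chain of the laminin that binds hemidesmosomes, was lower, at 466, 440.2 and 591 CPM in telogen and 176, 234 and 154 CPM in early anagen (log2 fold change -1.41, SE 0.16, adjusted p = 1e-05). Fras1, an extracellular protein that holds epithelium to mesenchyme, stood at 21.4, 21.3 and 15 CPM in telogen and 161, 217 and 328 CPM in early anagen (log2 fold change 3.61, SE 0.46, adjusted p = 2.5e-05). The proteoglycan perlecan, Hspg2, was at 319.9, 352 and 224 CPM in telogen and 834, 1073 and 964 CPM in early anagen (log2 fold change 1.68, SE 0.18, adjusted p = 6.9e-06). Peroxidasin, Pxdn, which crosslinks collagen IV, was at 59.8, 46.6 and 31.3 CPM in telogen and 188, 197 and 202 CPM in early anagen (log2 fold change 2.09, SE 0.25, adjusted p = 1.4e-05). For each of these the telogen and early anagen libraries did not overlap.

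Proteoglycans and the enzymes that build their sugar chains changed in both directions. Of 24 tested core proteins and hyaluronan links, 6 were higher and 7 were lower. Biglycan, Bgn, stood at 14.7, 16.8 and 7.50 CPM in telogen replicates 1 to 3 and 204, 241 and 236 CPM in early anagen replicates 1 to 3 (log2 fold change 4.12, SE 0.39, adjusted p = 2e-06). Versican, Vcan, a proteoglycan known from the dermal papilla, was at 1.58, 0.899 and 0 CPM in telogen and 53.7, 61.7 and 88.7 CPM in early anagen (log2 fold change 6.34, SE 0.89, adjusted p = 6.4e-05). Asporin, Aspn, which belongs to the same family as biglycan, was lower, at 17.2, 38.5 and 74.7 CPM in telogen and 1.48, 6.95 and 1.13 CPM in early anagen (log2 fold change -3.78, SE 0.69, adjusted p = 0.00065). Without telogen replicate 3 the counts were 3 higher and 4 lower, and without early anagen replicate 3 the higher count was 3. Glycosaminoglycan synthesis and sulfation gave 7 higher (15.2%, near the background) and 11 lower (23.9%) of 46. Chondroitin synthase Chsy1 was at 12.9, 8.86 and 9.68 CPM in telogen and 65.2, 45.3 and 55.7 CPM in early anagen (log2 fold change 2.40, SE 0.40, adjusted p = 0.00031). Chst11, a chondroitin sulfotransferase, was at 11.4, 14.1 and 19.1 CPM in telogen and 47.9, 37 and 75.2 CPM in early anagen (log2 fold change 1.84, SE 0.33, adjusted p = 0.00053). Chst3, which sulfates chondroitin at another carbon, was lower, at 10.5, 10.7 and 28.4 CPM in telogen and 1.48, 2.27 and 0.503 CPM in early anagen (log2 fold change -3.53, SE 0.64, adjusted p = 0.00062). Chst15, which adds a further sulfate, was lower too, at 53.3, 55.1 and 40.3 CPM in telogen and 24.1, 8.82 and 14 CPM in early anagen (log2 fold change -1.66, SE 0.31, adjusted p = 0.00082). The lower count of this list was 7 without telogen replicate 3 and with the young libraries alone.

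Matricellular and elastic fibre proteins had more lower than higher calls, with 13 lower and 4 higher of 34 tested. The latent TGF-beta binding protein Ltbp2 stood at 387, 341 and 463 CPM in telogen replicates 1 to 3 and 42.7, 62 and 26.9 CPM in early anagen replicates 1 to 3 (log2 fold change -3.18, SE 0.24, adjusted p = 2.4e-07). Tenascin-X, Tnxb, was at 136, 111 and 169 CPM in telogen and 4.95, 17.1 and 14.3 CPM in early anagen (log2 fold change -3.52, SE 0.36, adjusted p = 4.1e-06). Ccn2, also called connective tissue growth factor, was at 1032, 464 and 1131 CPM in telogen and 128, 110.3 and 113 CPM in early anagen (log2 fold change -2.90, SE 0.34, adjusted p = 1.4e-05). Its telogen replicate 2 lay well under the others of its stage, yet above all early anagen libraries. Higher members included 2 fibulins, proteins of elastic fibres and basement membranes. Fbln1 was at 87.5, 111 and 83.1 CPM in telogen and 214, 272 and 404 CPM in early anagen (log2 fold change 1.66, SE 0.26, adjusted p = 0.00019). Fbln2 was at 9.50, 11 and 5.20 CPM in telogen and 68, 47.4 and 33 CPM in early anagen (log2 fold change 2.53, SE 0.39, adjusted p = 0.00017). Tenascin-C, Tnc, was at 79.3, 76.7 and 29.2 CPM in telogen and 102, 128 and 101 CPM in early anagen and did not pass (log2 fold change 0.84, SE 0.39, adjusted p = 0.14), although it passed with limma voom and with no filter.

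Secreted proteases of the ADAMTS family cut matrix proteoglycans. Adamts9 stood at 23.7, 31.5 and 26.3 CPM in telogen replicates 1 to 3 and 156, 199 and 295 CPM in early anagen replicates 1 to 3 (log2 fold change 3.00, SE 0.30, adjusted p = 3.1e-06). Adamts17 was at 5.72, 6.81 and 12.9 CPM in telogen and 48.9, 67.4 and 103 CPM in early anagen (log2 fold change 3.10, SE 0.45, adjusted p = 8.3e-05). Adamtsl4, a relative without the protease domain, was lower, at 119, 123 and 199.6 CPM in telogen and 12.7, 25.1 and 18.7 CPM in early anagen (log2 fold change -2.96, SE 0.27, adjusted p = 1.7e-06). In all, 9 of 39 metalloproteases and inhibitors were higher and 7 were lower. Timp2, an inhibitor, was among the latter, at 244, 239 and 256 CPM in telogen and 120.1, 126 and 80.8 CPM in early anagen (log2 fold change -1.17, SE 0.17, adjusted p = 8.6e-05). The lower count was 3 without telogen replicate 3, 4 without early anagen replicate 1 and 4 without early anagen replicate 3.

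Cadherins, which join cells, were lower more often than higher, and 2 connexins, which form gap junctions, were higher. Of 63 tested cadherins and protocadherins, 15 were lower and 3 were higher, and the lower count was 9 without telogen replicate 3 and 8 without early anagen replicate 3. Cdh13, a cadherin held in the membrane by a lipid anchor, stood at 189, 179.7 and 154 CPM in telogen replicates 1 to 3 and 40.0, 45.2 and 31.5 CPM in early anagen replicates 1 to 3 (log2 fold change -2.17, SE 0.17, adjusted p = 5.1e-07). P-cadherin, Cdh3, a marker of the hair germ, was higher, at 98, 98.3 and 117 CPM in telogen and 206, 228 and 295 CPM in early anagen (log2 fold change 1.22, SE 0.17, adjusted p = 6.9e-05). Members of the protocadherin gamma cluster share their constant exons, so reads of its single genes are uncertain. The connexin gene Gja1 was at 93.9, 92.5 and 65 CPM in telogen and 419.8, 399.6 and 561 CPM in early anagen (log2 fold change 2.46, SE 0.24, adjusted p = 2.8e-06). Gjb2 was at 3.53, 3.98 and 2.06 CPM in telogen and 25, 29.5 and 42.6 CPM in early anagen (log2 fold change 3.34, SE 0.32, adjusted p = 2.3e-06). These were the 2 higher members among 21 tested claudins and gap junction proteins, and 4 were lower. Occludin, Ocln, a tight junction protein, was one of these, at 30.3, 59.2 and 65.2 CPM in telogen and 14.2, 11.9 and 6.79 CPM in early anagen (log2 fold change -2.23, SE 0.33, adjusted p = 9.2e-05). Among keratins, the filament proteins of epithelia, Krt80 was lower, at 375, 624 and 677 CPM in telogen and 111, 128 and 113 CPM in early anagen (log2 fold change -2.25, SE 0.21, adjusted p = 2e-06). Among integrins Itgb6 was higher (log2 fold change 1.30, SE 0.27, adjusted p = 0.0017) and Itga4 lower (log2 fold change -2.30, SE 0.37, adjusted p = 0.00023).

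Potassium channels set the resting voltage of cells. Of 27 tested potassium channel genes, 6 were lower and none was called higher in edgeR (median -1.06). The count higher was 2 at an unadjusted p of 0.05, 2 with DESeq2, and 1 with limma voom, with no filter, with the young libraries alone, with a replicate block and without early anagen replicate 1. The count lower was 9 with no filter. The leak channel Kcnk2, known as TREK-1, stood at 86.9, 50.5 and 42.6 CPM in telogen replicates 1 to 3 and 4.70, 13.8 and 6.42 CPM in early anagen replicates 1 to 3 (log2 fold change -2.86, SE 0.46, adjusted p = 0.00021). Kcnma1, the large-conductance calcium-activated channel, was at 26.5, 29.7 and 35.9 CPM in telogen and 5.20, 4.54 and 1.13 CPM in early anagen (log2 fold change -3.08, SE 0.44, adjusted p = 7e-05). Another leak channel, Kcnk1, was at 17.8, 9.38 and 3.75 CPM in telogen and 5.94, 0.401 and 4.78 CPM in early anagen and did not pass (log2 fold change -1.47, SE 1.01, adjusted p = 0.32). Among sodium and calcium channels, 3 of 29 were higher and 5 were lower. The voltage-gated calcium channel Cacna1c was at 40.5, 52.7 and 99 CPM in telogen and 11.3, 22.5 and 16.7 CPM in early anagen (log2 fold change -1.93, SE 0.36, adjusted p = 0.00077). The calcium store sensor Stim1 was at 216, 287 and 359 CPM in telogen and 130.3, 121 and 101 CPM in early anagen (log2 fold change -1.29, SE 0.18, adjusted p = 5.1e-05, outside the naming rule by its smaller change). The sodium channel subunit Scnn1b went up, at 3.77, 4.62 and 5.57 CPM in telogen and 29.7, 27.7 and 28.6 CPM in early anagen (log2 fold change 2.62, SE 0.32, adjusted p = 1.8e-05). The aquaglyceroporin Aqp3, a channel for water and glycerol, fell from 274 ± 36.3 to 52.6 ± 19.1 FPKM (SD, n = 3; log2 fold change -2.45, SE 0.23, adjusted p = 1.7e-06).

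Among chloride channel genes, lower calls outnumbered higher ones. Clca3a2, a regulator of calcium-activated chloride currents, was at 929, 833 and 688 CPM in telogen replicates 1 to 3 and 273, 195 and 103 CPM in early anagen replicates 1 to 3 (log2 fold change -2.10, SE 0.26, adjusted p = 1.7e-05). Lrrc8b, a subunit of the channel that opens when cells swell, was at 5.24, 3.47 and 0.605 CPM in telogen and 22.6, 33.3 and 19.4 CPM in early anagen (log2 fold change 3.01, SE 0.60, adjusted p = 0.0014). Its partner subunit Lrrc8c was at 2.92, 3.60 and 0.605 CPM in telogen and 22.1, 14.2 and 15.7 CPM in early anagen (log2 fold change 2.86, SE 0.63, adjusted p = 0.0029). Clca genes are near-identical neighbours, so their single levels are uncertain. In all 4 of 29 were higher (13.8%, near the background) and 8 were lower (27.6%), with 5 lower without telogen replicate 2. Of 24 tested TRP and mechanically gated channels, 2 were higher and 6 were lower, with Pkd1, polycystin-1, at 392, 415 and 754 CPM in telogen and 106, 165 and 126 CPM in early anagen (log2 fold change -1.98, SE 0.25, adjusted p = 2.2e-05). The lower count was 3 without any 1 of telogen replicates 2 and 3 and early anagen replicates 1 and 3. Piezo1, the main mechanically gated channel, was at 77.1, 68.8 and 73.4 CPM in telogen and 85, 77 and 71.7 CPM in early anagen and did not pass the test (log2 fold change 0.09, SE 0.17, adjusted p = 0.76). Trpv4 was higher (log2 fold change 0.73, SE 0.18, adjusted p = 0.0065). Among pumps the plasma membrane calcium pump Atp2b4 was lower, at 359.9, 399 and 448 CPM in telogen and 132, 143 and 105 CPM in early anagen (log2 fold change -1.67, SE 0.16, adjusted p = 2.6e-06). Among metal carriers the transferrin receptor Tfrc, which brings in iron, was higher, at 38.5, 33.3 and 17.3 CPM in telogen and 90.2, 85.1 and 109 CPM in early anagen (log2 fold change 1.67, SE 0.25, adjusted p = 1e-04).

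Of the adhesion G protein-coupled receptors, 3 of 16 were higher and 6 were lower. Adgra2, a coreceptor of Wnt7 signalling, was nearly silent in telogen, at 0, 0 and 0.484 CPM in telogen replicates 1 to 3 and 27.6, 19 and 36.6 CPM in early anagen replicates 1 to 3 (log2 fold change 7.27, SE 1.05, adjusted p = 8.2e-05). Adgrg6, a receptor that binds collagen IV, was lower, at 116, 213 and 287 CPM in telogen and 49, 86.2 and 46.3 CPM in early anagen (log2 fold change -1.76, SE 0.28, adjusted p = 0.00018). Its levels did not overlap between the stages.

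The circadian clock runs on factors that switch on their own repressors through CACGTG elements, and the proteins of the Per, Cry and Nr1d genes close the loop. Its genes had the largest share of lower members among the lists with at least 15 tested members. Of 21 tested clock genes, 14 were lower and none was called higher (1 at an unadjusted p of 0.05, and none with DESeq2 or limma voom; median -1.06), and the count of lower members ran from 10 to 14 without a library in turn. Tef, a PAR leucine zipper factor at the output of the clock, stood at 525, 454 and 513 CPM in telogen replicates 1 to 3 and 192, 183 and 86.2 CPM in early anagen replicates 1 to 3 (log2 fold change -1.69, SE 0.22, adjusted p = 3e-05). The repressor gene Per1 was at 459.8, 396 and 477 CPM in telogen and 241, 219 and 239.9 CPM in early anagen (log2 fold change -0.93, SE 0.14, adjusted p = 0.00016). Per2 was at 138, 100.4 and 159.8 CPM in telogen and 64, 63.1 and 36.2 CPM in early anagen (log2 fold change -1.29, SE 0.26, adjusted p = 0.0016). Both were lower without overlap. Per3 was at 247, 222 and 129 CPM in telogen and 111, 112 and 41.3 CPM in early anagen (log2 fold change -1.18, SE 0.31, adjusted p = 0.0094). Bhlhe41, another repressor, was at 84.5, 74.8 and 43.2 CPM in telogen and 18.3, 29.3 and 6.67 CPM in early anagen (log2 fold change -1.90, SE 0.38, adjusted p = 0.0014). Npas2, a partner of Arntl, was at 7.55, 9.50 and 6.90 CPM in telogen and 1.48, 1.07 and 0.881 CPM in early anagen (log2 fold change -2.78, SE 0.66, adjusted p = 0.0049). The Per genes and Tef were named after their values were seen.

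Arntl itself, which encodes the activator BMAL1, was at 19.5, 14.9 and 26.3 CPM in telogen and 11.8, 21.7 and 26.7 CPM in early anagen and did not pass the test (log2 fold change -0.01, SE 0.33, adjusted p = 0.98). Dbp was at 271, 228 and 59.3 CPM in telogen and 132, 87 and 17.4 CPM in early anagen, with overlapping groups, and did not pass (log2 fold change -1.24, SE 0.53, adjusted p = 0.098). It passed with a replicate block (adjusted p = 0.026), with no filter, and without telogen replicate 3 or early anagen replicate 1. Nr1d1, a repressor of Arntl, was at 217, 223 and 49.7 CPM in telogen and 72.1, 78.4 and 11.7 CPM in early anagen with overlapping groups (log2 fold change -1.59, SE 0.53, adjusted p = 0.035). It lost the call with DESeq2, with the young libraries alone and without telogen replicate 1, telogen replicate 2 or early anagen replicate 3, with an adjusted p of up to 0.13. In Dbp and Nr1d1 replicate 3 was the lowest library of its stage by a wide margin, and replicate 3 was also lowest for Per3 and highest for Arntl in both stages. The hour at which skin was collected is not given in the labels, and its part in the result was not tested.

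**Figure D4:**
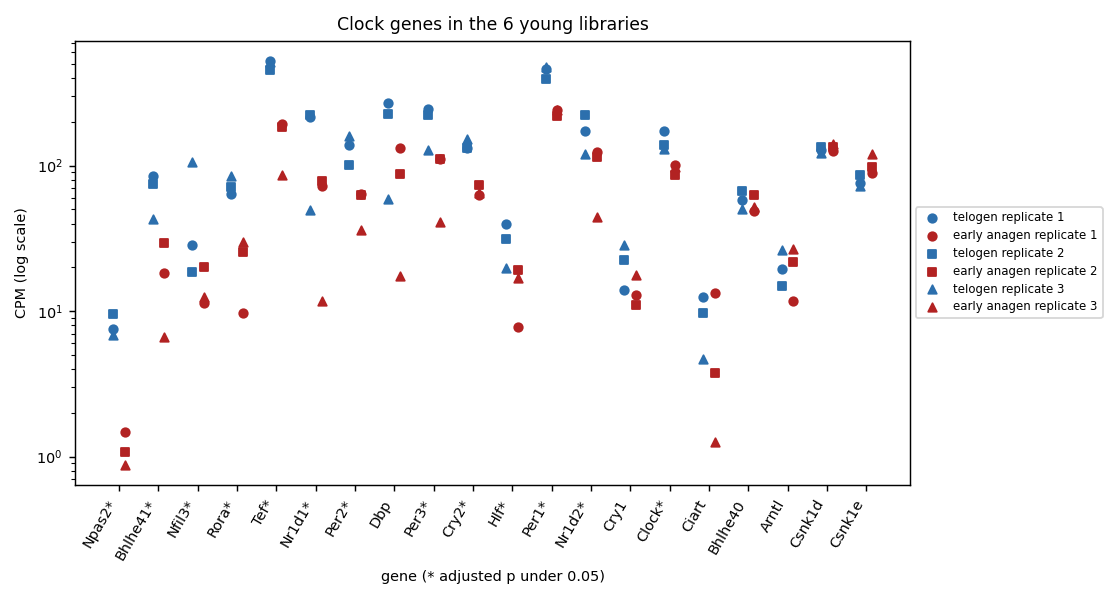
CPM on a log axis of 20 of the 21 tested clock genes in each young telogen library (blue) and young early anagen library (red), with marker shapes for replicates, ordered by log2 fold change from the left. Tef, Per1 and Per2 have all red points under all blue points, whereas Arntl and Csnk1d have mixed points.

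The promoter windows of Per1, Tef and Bhlhe41 are shown because they are the lower clock genes whose 250 bases before the start held CACGTG, a palindrome that reads alike on both strands. It stood in 5 of the 17 tested clock genes with a RefSeq window (29.4%), in 3 of the 12 that were lower, in 9.8% of the 10621 tested genes with a window and in 6.0% of all windows. Per3 is shown for its 2 copies of TTANGTAA, the letters bound by Tef and its relatives, which stood in 1.6% of the tested genes. All are from RefSeq, build GRCm38.p6, 5′ to 3′ toward the gene's start, with the matches in capitals. Per1 lies at chr11:69098699-69098948 on the plus strand, Tef at chr15:81802423-81802672 on the plus strand, Bhlhe41 at chr6:145865421-145865670 on the minus strand and Per3 at chr4:151044666-151044915 on the minus strand.
Per1: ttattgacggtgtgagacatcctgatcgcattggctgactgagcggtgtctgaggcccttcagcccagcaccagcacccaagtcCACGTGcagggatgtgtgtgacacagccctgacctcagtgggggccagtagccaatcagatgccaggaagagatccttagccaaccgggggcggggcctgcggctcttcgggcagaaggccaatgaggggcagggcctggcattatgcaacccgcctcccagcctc
Tef: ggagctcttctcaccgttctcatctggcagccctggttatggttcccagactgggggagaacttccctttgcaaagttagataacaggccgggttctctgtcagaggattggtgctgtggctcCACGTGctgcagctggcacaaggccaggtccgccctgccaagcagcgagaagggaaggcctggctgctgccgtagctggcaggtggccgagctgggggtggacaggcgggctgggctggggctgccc
Bhlhe41: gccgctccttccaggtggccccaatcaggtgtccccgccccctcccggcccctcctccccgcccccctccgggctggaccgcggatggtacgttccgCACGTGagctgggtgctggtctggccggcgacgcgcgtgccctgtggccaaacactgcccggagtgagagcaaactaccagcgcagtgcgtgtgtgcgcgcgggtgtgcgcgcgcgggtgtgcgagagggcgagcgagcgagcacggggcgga
Per3: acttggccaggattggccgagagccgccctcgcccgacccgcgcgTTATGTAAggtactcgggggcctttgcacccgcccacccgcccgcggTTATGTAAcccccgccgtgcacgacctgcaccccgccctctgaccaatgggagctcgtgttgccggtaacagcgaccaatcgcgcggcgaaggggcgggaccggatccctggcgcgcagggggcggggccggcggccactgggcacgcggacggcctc

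The Klf and Sp zinc finger had 11 lower and 1 higher of 19 tested genes, while 7 were not called (median -0.85). Klf4, which drives the epidermal barrier, stood at 362, 538 and 799 CPM in telogen replicates 1 to 3 and 125, 184 and 206 CPM in early anagen replicates 1 to 3 (log2 fold change -1.72, SE 0.23, adjusted p = 4.3e-05). Klf9, a gene switched on by the glucocorticoid receptor and the clock, was at 155, 161 and 304 CPM in telogen and 36.4, 76.4 and 39.5 CPM in early anagen (log2 fold change -2.02, SE 0.30, adjusted p = 9.8e-05). Klf15 was at 73.3, 53.8 and 148 CPM in telogen and 7.67, 17 and 8.56 CPM in early anagen (log2 fold change -3.06, SE 0.47, adjusted p = 0.00015). For these 3 the telogen libraries were spread widely. The higher member, Sp5, a target of Wnt signalling, had counts in 2 of 3 early anagen libraries and none in telogen, with a fold of at least 21.7 taking the telogen group at a floor of 3 counts. It lost the call with limma voom, with a replicate block and in 4 fits without a library, with an adjusted p of up to 0.26. Nuclear receptors gave 11 lower and 1 higher of 29, among them the mineralocorticoid receptor Nr3c2 at 11.9, 16.3 and 16.8 CPM in telogen and 2.97, 2.81 and 1.13 CPM in early anagen (log2 fold change -2.70, SE 0.38, adjusted p = 7.4e-05). Some of them, such as Rora, also stand in the clock list.

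Hox genes record position along the body axis. Of 39 Hox genes in the table, 24 were tested, 9 were higher and none was called lower (1 at an unadjusted p of 0.05, and none with DESeq2 or limma voom). All 9 higher genes belong to paralogue groups 6 to 13, of which 12 were tested and Hoxa6, Hoxc6 and Hoxb7 did not pass, while of the 12 tested genes of groups 1 to 5 none passed (log2 fold changes from -1.21 to 1.87). This split was drawn after the values were seen and was not tested. Hoxb8 stood at 7.67, 12.7 and 5.93 CPM in telogen replicates 1 to 3 and 58.9, 50.4 and 66.2 CPM in early anagen replicates 1 to 3 (log2 fold change 2.74, SE 0.29, adjusted p = 4.7e-06). Hoxb9 was at 0.122, 2.06 and 1.94 CPM in telogen and 31.2, 28.5 and 19.6 CPM in early anagen (log2 fold change 4.26, SE 0.60, adjusted p = 7.2e-05). Hoxc13, a regulator of hair keratins, was at 18.9, 17.5 and 17.1 CPM in telogen and 38.4, 53.6 and 109 CPM in early anagen (log2 fold change 1.91, SE 0.33, adjusted p = 0.00043). Hoxa9 had 133 counts in early anagen and none in telogen, a fold of at least 45.7 taking the telogen group at a floor of 3 counts. Hoxc9 had 32 counts against none (at least 11-fold), and lost its call when any telogen library or early anagen replicate 2 was left out (adjusted p up to 0.078). Hox clusters hold antisense transcripts, and without a stated strand setting their reads cannot be told apart. The fibroblast marker sums given above were higher in the same libraries but overlapped without Fbln1, and their part in the result was not tested.

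**Figure D5:**
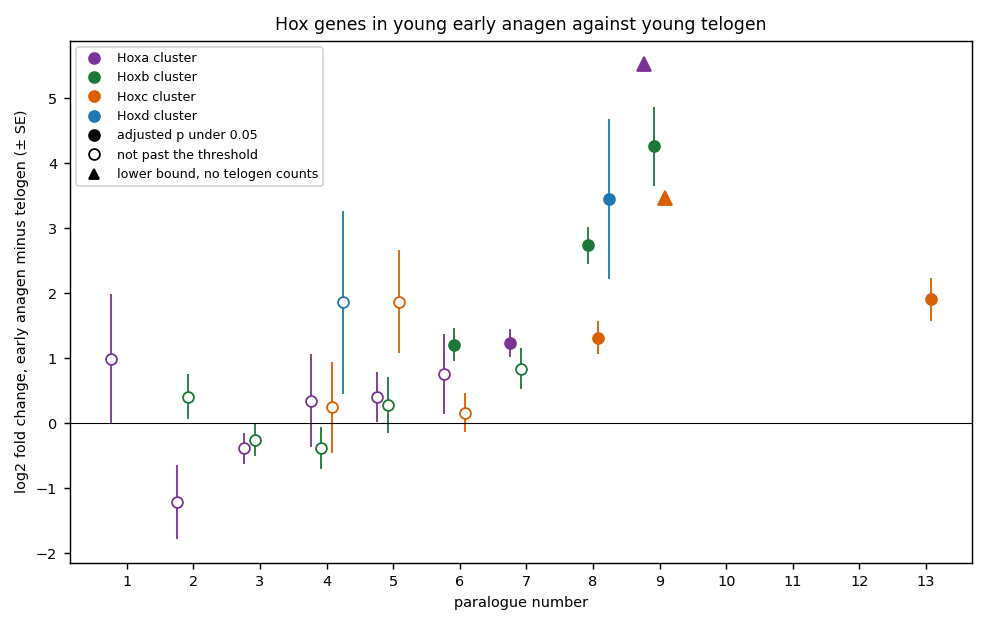
Log2 fold change ± SE (early anagen minus telogen, 3 libraries each) of the 24 tested Hox genes by paralogue number, with filled points past an adjusted p of 0.05 and triangles at the lower bound for Hoxa9 and Hoxc9, which had no telogen counts. Groups 1 to 5 hold open points only, and the filled points begin at group 6.

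Among other homeobox genes 16 of 41 were higher and 8 were lower. Without early anagen replicate 1 the higher count was 10, and without telogen replicate 3 the lower count was 5. Cux1, a repressor with cut repeats, stood at 86.4, 74.2 and 44 CPM in telogen replicates 1 to 3 and 483, 541 and 836 CPM in early anagen replicates 1 to 3 (log2 fold change 3.18, SE 0.26, adjusted p = 5.4e-07). Dlx2 was at 3.17, 1.16 and 1.81 CPM in telogen and 33, 29.3 and 47.8 CPM in early anagen (log2 fold change 4.15, SE 0.55, adjusted p = 3.9e-05). Lhx2, which keeps stem cells in the bulge, was at 243, 180.1 and 205 CPM in telogen and 436, 445 and 675 CPM in early anagen (log2 fold change 1.31, SE 0.19, adjusted p = 9.2e-05). Pknox2 was lower, at 25.8, 20.6 and 45.5 CPM in telogen and 0.124, 5.35 and 1.89 CPM in early anagen (log2 fold change -3.65, SE 0.64, adjusted p = 0.00044).

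The E2f, Myb and Myc families control entry into growth and division. Mycn stood at 5.97, 7.83 and 4.11 CPM in telogen replicates 1 to 3 and 168, 179.8 and 313 CPM in early anagen replicates 1 to 3 (log2 fold change 5.21, SE 0.49, adjusted p = 1.9e-06), and its level per length rose from 1.78 to 69.5 FPKM. Myc went the other way, at 97.8, 73 and 83.2 CPM in telogen and 57.5, 32.5 and 45.2 CPM in early anagen (log2 fold change -0.91, SE 0.20, adjusted p = 0.003), so that early anagen cells had more Mycn than Myc transcript by FPKM (69.5 against 17.2) and telogen cells less (1.78 against 30.7). Of the 29 tested E2f, Myb and Myc family genes, 13 were higher and 8 were lower (5 lower without telogen replicate 3). Lower members that held in every fit included Mxd4 (log2 fold change -1.18, SE 0.17, adjusted p = 9.2e-05) and Mxi1 (log2 fold change -1.02, SE 0.18, adjusted p = 0.00043), which compete with Myc for its partner Max. The Mycn window, at chr12:12941837-12942086 on the minus strand, is shown for its 2 matches to TTTCCCGC or TTTGGCGC, letters of the kind bound by E2f factors, searched on both strands. These stood in 2.9% of tested genes and in 3 of 24 tested members of this list with a window.
Mycn: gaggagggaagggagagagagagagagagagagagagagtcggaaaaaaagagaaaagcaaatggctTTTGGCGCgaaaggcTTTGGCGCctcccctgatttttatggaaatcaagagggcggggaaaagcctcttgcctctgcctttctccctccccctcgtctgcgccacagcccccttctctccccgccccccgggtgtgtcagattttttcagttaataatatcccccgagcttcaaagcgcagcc

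The Sox and forkhead families each had members on both sides. Sox13 stood at 8.64, 11.6 and 15.2 CPM in telogen replicates 1 to 3 and 178, 228 and 207 CPM in early anagen replicates 1 to 3 (log2 fold change 4.11, SE 0.23, adjusted p = 1.2e-08). Sox4 was at 34.6, 31.9 and 49.2 CPM in telogen and 219, 289 and 364 CPM in early anagen (log2 fold change 2.91, SE 0.38, adjusted p = 3e-05). Sox7 and Sox21 were lower, by log2 fold changes of -1.66 (SE 0.35) and -1.64 (SE 0.36). Sox9, which marks bulge cells, was at 571, 686 and 555 CPM in telogen and 627, 648 and 438 CPM in early anagen and did not pass (log2 fold change -0.08, SE 0.16, adjusted p = 0.77). The forkhead list gave 4 higher and 7 lower of 17. Foxi3, a regulator of hair follicle formation, stood at 6.94, 3.47 and 0.605 CPM in telogen and 81.2, 88.1 and 115 CPM in early anagen (log2 fold change 4.69, SE 0.62, adjusted p = 4e-05). Foxo3, which supports quiescence in many stem cells, was at 309, 339 and 480.5 CPM in telogen and 172, 177 and 162 CPM in early anagen (log2 fold change -1.15, SE 0.15, adjusted p = 4.4e-05). Foxc1, known to hold bulge cells at rest, was lower (log2 fold change -1.40, SE 0.20, adjusted p = 6.6e-05). Nfatc1, with a like role, was at 299, 360.4 and 480.4 CPM in telogen and 257, 338 and 181 CPM in early anagen and did not pass (log2 fold change -0.56, SE 0.20, adjusted p = 0.051), although it passed with DESeq2, limma voom, no filter and without telogen replicate 1 or early anagen replicate 2.

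Zbtb and Zfp genes are further zinc finger families. Zbtb genes gave 10 lower and 1 higher of 38, with Zbtb16 at 465, 519.5 and 994 CPM in telogen and 84.6, 224 and 256 CPM in early anagen (log2 fold change -1.81, SE 0.35, adjusted p = 0.0012). Zbtb20 was at 195, 222 and 256 CPM in telogen and 40.0, 86.6 and 26.9 CPM in early anagen (log2 fold change -2.13, SE 0.29, adjusted p = 5.5e-05). Of 342 tested Zfp genes 12 were higher and 21 lower, both under the background share, with as few as 6 higher (without early anagen replicate 3) and 13 lower (without telogen replicate 3). Gata6, a factor of the upper follicle, was lower, at 91.3, 120.5 and 113 CPM in telogen and 34.8, 16.7 and 15.1 CPM in early anagen (log2 fold change -2.29, SE 0.28, adjusted p = 2e-05). The upper follicle marker sums given above overlapped between the stages, and their part in the result was not tested.

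Chromatin genes were called in both directions. Of 57 tested DNA and histone methylation enzymes, 12 were higher and 10 were lower. The maintenance DNA methyltransferase Dnmt1 stood at 186, 166 and 115 CPM in telogen replicates 1 to 3 and 514, 495 and 682 CPM in early anagen replicates 1 to 3 (log2 fold change 1.85, SE 0.18, adjusted p = 2.3e-06). Its partner Uhrf1 was at 70.4, 44.2 and 13.2 CPM in telogen and 367, 400 and 420.2 CPM in early anagen (log2 fold change 3.22, SE 0.37, adjusted p = 1e-05). The order of the telogen libraries was the same for Uhrf1 as for Mki67. Ezh2, the polycomb H3K27 methyltransferase, was higher (log2 fold change 1.40, SE 0.18, adjusted p = 3.2e-05) and its relative Ezh1 lower, at 122, 161 and 143 CPM in telogen and 70.3, 89.8 and 42.3 CPM in early anagen (log2 fold change -1.07, SE 0.21, adjusted p = 0.0012). All 3 heterochromatin protein genes were higher, with Cbx5 at 139, 91.7 and 70.8 CPM in telogen and 282, 273 and 411 CPM in early anagen (log2 fold change 1.68, SE 0.21, adjusted p = 2.4e-05) and log2 fold changes of 1.58 (SE 0.27) for Cbx3 and 0.98 (SE 0.15) for Cbx1.

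Chemokines and interleukins, signals that keratinocytes exchange with immune cells and each other, had more lower than higher calls. Of 50 tested chemokines, interleukins and their receptors, 17 were lower and 2 were higher (median -0.78). Il31ra, a subunit of the receptor for the itch cytokine interleukin-31, stood at 439, 480.5 and 759 CPM in telogen replicates 1 to 3 and 45.3, 126 and 47.6 CPM in early anagen replicates 1 to 3 (log2 fold change -2.94, SE 0.37, adjusted p = 2.4e-05). Ccl27a, a chemokine that draws T cells to skin, was at 165, 112 and 178 CPM in telogen and 41, 34.7 and 18 CPM in early anagen (log2 fold change -2.28, SE 0.34, adjusted p = 0.00012). Cxcl12 was at 171, 142 and 143 CPM in telogen and 41.2, 50.5 and 35.9 CPM in early anagen (log2 fold change -1.84, SE 0.18, adjusted p = 2.6e-06, outside the naming rule by its smaller change). No member of the Stat, Irf and NF-kappaB list was called higher and 8 of 23 were lower, a count that fell to 4 without telogen replicate 2 or early anagen replicate 2 and to 5 without telogen replicate 3, without early anagen replicate 3 or with the young libraries alone.

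Axon guidance proteins steer growing nerves and are also used by epithelia. Among 51 tested axon guidance genes, 7 were higher and 12 were lower. The semaphorin receptor Nrp2 was at 116, 59 and 34.5 CPM in telogen replicates 1 to 3 and 224, 250.4 and 386 CPM in early anagen replicates 1 to 3 (log2 fold change 2.04, SE 0.34, adjusted p = 0.00033). Robo1, a receptor for Slit ligands, was at 23.5, 12.6 and 9.92 CPM in telogen and 43.7, 84.5 and 152 CPM in early anagen (log2 fold change 2.60, SE 0.45, adjusted p = 0.00038). The plexin Plxna2, another semaphorin receptor, was at 423, 305 and 288 CPM in telogen and 86.1, 80.1 and 64.8 CPM in early anagen (log2 fold change -2.14, SE 0.20, adjusted p = 1.9e-06). The ligand Sema3e was at 334, 320.2 and 486 CPM in telogen and 82, 135 and 63.3 CPM in early anagen (log2 fold change -2.03, SE 0.23, adjusted p = 8.6e-06). The first 2 were higher and the last 2 lower, with no overlap in any of them. Without early anagen replicate 2 the higher count was 4.

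Fibroblast growth factors signal between follicle and dermis. Fgf2 had 1 count in telogen and 162 in early anagen, a ratio of 167 (exact 95% counting interval 29.6 to 6640). Fgf1 was lower, at 106, 80.1 and 76.4 CPM in telogen replicates 1 to 3 and 16, 24.3 and 23.5 CPM in early anagen replicates 1 to 3 (log2 fold change -2.04, SE 0.24, adjusted p = 1.3e-05). Cntfr, the receptor for ciliary neurotrophic factor, stood at 15, 8.22 and 7.14 CPM in telogen and 113, 168 and 230.5 CPM in early anagen (log2 fold change 4.07, SE 0.35, adjusted p = 1.2e-06). Ntrk2, the receptor for brain-derived neurotrophic factor, was at 16.6, 14.6 and 29.8 CPM in telogen and 0, 1.60 and 0.755 CPM in early anagen (log2 fold change -4.68, SE 0.88, adjusted p = 8e-04). Of 32 tested neurotrophic and other growth factor genes, 3 were higher and 10 were lower. The insulin receptor Insr (log2 fold change -1.37, SE 0.18, adjusted p = 4.7e-05) and its substrate Irs2 (log2 fold change -1.32, SE 0.21, adjusted p = 0.00018) were among the lower ones, named after their values were seen.

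Among long noncoding genes, lower calls outnumbered higher ones. By GENCODE M21 classes, 27 of 1030 tested long noncoding genes (2.6%) were higher and 65 (6.3%) were lower (median log2 fold change -0.44). Both shares were under the background of 12.6% and 12.4%. Of 12753 protein-coding genes, 1887 (14.8%) were higher and 1833 (14.4%) lower (median -0.03). The share of all counts on lincRNA and antisense genes was 2.42 to 2.6% in telogen and 1.14 to 1.51% in early anagen, and the groups did not overlap. Most of it was Malat1, a nuclear RNA of chromosome 19 (GRCm39 chr19:5845718-5852700), which stood at 19139, 19722 and 19678 CPM in telogen replicates 1 to 3 and 7698, 10239.7 and 7208 CPM in early anagen replicates 1 to 3 (log2 fold change -1.22, SE 0.12, adjusted p = 2.9e-06). Its telogen libraries were nearly equal, and early anagen replicate 2 was the highest of its stage. Neat1, the neighbouring RNA that builds paraspeckles, was at 1287, 1542 and 2241 CPM in telogen and 639, 935 and 587 CPM in early anagen (log2 fold change -1.23, SE 0.22, adjusted p = 0.00058), with telogen replicate 3 the highest.

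Firre, an X-linked RNA that shapes nuclear architecture, was lower too, at 191, 234 and 250.1 CPM in telogen replicates 1 to 3 and 81.8, 91.3 and 66.3 CPM in early anagen replicates 1 to 3 (log2 fold change -1.50, SE 0.17, adjusted p = 1e-05). Lncpint, an RNA induced by p53, was lower as well, at 82.4, 108 and 168 CPM in telogen and 20.5, 45.7 and 19.1 CPM in early anagen (log2 fold change -2.07, SE 0.37, adjusted p = 0.00048). The higher noncoding genes included hosts of small nucleolar RNAs, which lie in their introns. Snhg1 was at 39, 37.5 and 24.4 CPM in telogen and 61.9, 69.2 and 71.2 CPM in early anagen (log2 fold change 1.00, SE 0.24, adjusted p = 0.0051). Snhg5 was at 22.6, 17 and 18.3 CPM in telogen and 41.1, 37.2 and 40.5 CPM in early anagen (log2 fold change 1.04, SE 0.21, adjusted p = 0.0017). Of the 45 tested named long noncoding genes, 5 were higher (3 without telogen replicate 2 or telogen replicate 3) and 7 were lower, while 0 of the 86 tested small nucleolar RNA genes were called higher themselves (4 lower). Pseudogenes gave 80 higher (7.2%) and 18 lower (1.6%) of 1113, both under the background, and reads of these genes may come from their coding parents. Of 30 tested miRNA hairpin genes 1 was called, and the library type does not measure mature miRNAs.

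Genes without a given name could differ as much. Gm40864 had no telogen counts and 96 in early anagen (at least 33-fold higher), and Gm48334 had 105 in telogen and none in early anagen (at least 33.9-fold lower). Among imprinted genes, which are read from 1 parental copy, 4 of 30 were higher and 3 were lower, near the background. Rasgrf1, an exchange factor for Ras, was at 28.9, 17.7 and 18.1 CPM in telogen replicates 1 to 3 and 2.60, 3.07 and 0.881 CPM in early anagen replicates 1 to 3 (log2 fold change -3.30, SE 0.55, adjusted p = 0.00028). Zrsr1, a splicing factor gene, was at 54.4, 25.6 and 80.0 CPM in telogen and 11.3, 18.4 and 13 CPM in early anagen (log2 fold change -1.91, SE 0.33, adjusted p = 0.00045). H19, a fetal growth-restraining RNA, had 75 counts in early anagen and none in telogen (at least 25.8-fold), and lost its call without telogen replicate 2, telogen replicate 3 or early anagen replicate 3 (adjusted p up to 0.078). Igf2, its imprinted neighbour, had no counts in the 6 libraries, and Xist had 9 and 4 counts in the 3 telogen and 3 early anagen libraries together. Neither was tested.

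Some of the changed genes were among the most abundant per length. Apoe, the apolipoprotein that carries lipids, had the largest loss of FPKM among protein-coding genes past the test, from 3943 ± 588 to 1528 ± 715 FPKM (SD, n = 3; log2 fold change -1.44, SE 0.23, adjusted p = 0.00022). Anxa8, an annexin, fell from 940 ± 289 to 188 ± 26.8 FPKM (log2 fold change -2.40, SE 0.18, adjusted p = 2.4e-07). Txnip, which restrains glucose uptake, fell from 442 ± 300 to 82.3 ± 5.21 FPKM (log2 fold change -2.49, SE 0.33, adjusted p = 3.8e-05). Ptma, a small nuclear protein of dividing cells, rose from 226 ± 37.2 to 891 ± 208 FPKM (log2 fold change 1.90, SE 0.21, adjusted p = 6.9e-06), although its many processed copies make its level uncertain. Basp1, a membrane protein known from growing axons, rose from 0.733 to 35 FPKM (log2 fold change 5.48, SE 0.90, adjusted p = 0.00027). Dbn1, which binds actin in neurons, rose from 0.440 to 20.5 FPKM (log2 fold change 5.45, SE 0.61, adjusted p = 9.2e-06).

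Responses were compared with those of old mice by the interaction term of the same fit, which passed for 250 of 16011 genes (1.56%), 1.01% of all genes with a higher and 0.556% with a lower old response. With a library left out in turn the number with a positive term (old response above young) ran from 62 to 290, against 161 in the fit of all libraries. Among the 207 young-called genes with such a difference was Col14a1, whose old response was smaller by 3.52 on the log2 scale (interaction -3.52, SE 0.31, adjusted p = 2.7e-05). Mean CPM of Col14a1 in old mice was 3.49 in telogen and 14.1 in early anagen. Genes that fell in young mice differed too. Ppara had an interaction of 2.89 (adjusted p = 0.042), with old means of 8.35 and 16 CPM. Aldh1a1 had an interaction of 4.05 (adjusted p = 0.021), with old means of 7.59 and 12.3 CPM. No clock gene of the 21 tested passed this test, nor did Malat1 (0.55, adjusted p = 0.12) or Mycn (-2.49, adjusted p = 0.051), which does not show that their responses were alike.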

How the data were processed

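Cells sorted from mouse skin gave 12 RNA libraries made with a stranded total RNA kit, in 4 groups of 3 libraries. The authors deposited a table of counts and FPKM per gene. The tools named are bcl2fastq 2.17.1.14, cutadapt 1.9.1, HISAT2 2.0.1 and HTSeq 0.6.1 with the build GRCm39, per the submitters' processing notes, which give no roles. The strand setting and the annotation release are not given in the sources used here.

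From the deposited counts, edgeR 4.0.16 (R 4.3.3) was run on all 12 libraries with filterByExpr, TMM factors and a quasi-likelihood test of young early anagen against young telogen and of the interaction with age, with Benjamini-Hochberg adjustment over 16011 genes and a threshold of 0.05. SE is the log2 fold change divided by the square root of F. The deposited FPKM values were used for levels between genes and were not tested. Alternatives were DESeq2 1.42.0, limma 3.58.1 (voom), DESeq2 size factors in edgeR, no filter, a stricter filter (5 CPM in 3 libraries), the young libraries alone, a replicate block and each library left out. Young library totals were 7291178 to 8364224 counts, and counting intervals and floors cover counting error only. Gene classes came from GENCODE M21, which held 52083 of the 55359 genes. Promoter windows came from RefSeq (GRCm38.p6, not the build of the counts) and were matched by symbol. The fit was checked on simulated data.

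The comparison and its 73 gene lists were chosen with earlier results of these data known. Genes were named by a rule that, apart from a fixed set, took only called genes whose 3 libraries per stage did not overlap. Among protein-coding genes with a given name it took the 10 largest changes per direction at 5 FPKM or more. It also took the 8 largest FPKM differences per direction among them. To these it added up to 4 genes per list and direction and 6 noncoding genes of at least 1 FPKM per direction. The fixed set was chosen whatever its values, and some of its genes are not reported here. Genes outside the rule were picked after their values were seen, also where the text does not repeat this: they illustrate a list or a family. Some genes that the rule names are not reported here.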

Additional observations from a re-analysis of the deposited data

Results flagged for a closer look

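For 26 of the 201 tested genes named above, the interaction term of the edgeR fit passed an adjusted p of 0.05, so that the change from telogen to early anagen differed between old and young mice. Values below are old response minus young response on the log2 scale. The term passed for 250 of all 16011 genes tested (1.56%), 207 of them called in young mice. In 25 of the 26 the old response was smaller in size than the young response, the exception being Trpv4. Many were named for large changes in young mice, and the interaction uses the same young values. The choice thus favours a smaller old response. Some old changes had the opposite sign, such as -0.62 for Lhx2 and 0.7 for Aldh1a1.

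Among genes that rose in young mice, the difference was -5.88 for Adgra2, -3.22 for Dlx2, -2.18 for Cux1, -1.93 for Lhx2, -2.48 for Hoxc13 and -2.13 for Hoxb8. It was -3.52 for Col14a1, -1.48 for Col4a2, -1.17 for Lama5, -1.02 for Lamc1 and -2.04 for Adamts9. It was -1.98 for Trpv4, -1.69 for Cad and -1.10 for Cdh3.

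Among genes that fell in young mice, the difference was 4.05 for Aldh1a1, 2.89 for Ppara, 1.32 for Gstm1, 1.57 for Apoe and 1.37 for Slc6a8. It was 2.13 for Tnxb, 2.27 for Ocln, 1.90 for Clca3a2, 1.07 for Atp2b4 and 1.04 for Anxa8. It was 2.64 for Gata6 and 1.32 for Foxc1. The number of genes with such a difference depended on the libraries in the fit, as given below.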

How the results depend on the processing

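The number of genes higher in young early anagen was 2010 and ran from 1437 to 1889 with a library left out, and the number lower was 1993 and ran from 1369 to 1824. Under the other settings it ran from 1927 to 2275 higher and from 1624 to 2188 lower (DESeq2 size factors in edgeR, DESeq2, limma voom, no filter, a stricter filter, the young libraries alone). Samples share only a replicate number: correlations of the deviations of the same-numbered young libraries were 0.103, 0.041 and 0.008, and a replicate block gave 1985 higher and 1973 lower in young mice.

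Of the 189 named genes past the threshold, 179 kept their call under every setting that gave them an adjusted p. Some genes with few counts had none under some settings. The 10 that lost their call (Tk2, Lamb1, Hoxc9, H19, Nr1d1, Sp5, Lef1, Dcn, Fads2 and Dsg1a) carry their values in the text. Genes that were not called changed sign in some fits. With a library left out, Sox9 ran from -0.179 to 0.076, Itga6 from -0.199 to 0.037, Slc2a1 from -0.356 to 0.061 and Arntl from -0.28 to 0.256. Arntl was also at 0.005 with DESeq2 size factors in edgeR and with DESeq2, at 0.011 with the stricter filter and at 0.007 with the young libraries alone. None of these passed the threshold.

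The difference between the ages was the least stable result. Genes with a higher old than young response numbered 161, against 387 with DESeq2, 575 with no filter and 62 to 290 with a library left out. Genes with a lower old response numbered 89, against 217 with DESeq2, 243 with no filter and 30 to 122 with a library left out. The lowest counts came without old early anagen replicate 1, and the cause was not tested. Leaving out any of 9 libraries moved at least 1 of these counts by over 1.5 times: young telogen replicate 2, old telogen replicates 1 and 3, and each early anagen library of both ages. A replicate block gave 219 and 91. With 3 libraries per group, genes with few counts could not be tested: 39348 of 55359 were left out.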

Other observations

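Counts for families not described above follow, beside the background of 12.6% higher and 12.4% lower. Keratins, and serpins and kallikreins, were near it in both directions. Leucine zipper factors, Ets factors and the Gata list were near it for higher members only. Of 17 tested Ets factors, 3 were higher and none was called lower (1 at an unadjusted p of 0.05, and none with DESeq2 or limma voom), while of 35 basic helix-loop-helix factors 2 were higher and 8 lower, and of 39 leucine zipper factors 4 were higher and 8 lower. T-box and Smad genes gave 3 higher and 1 lower of 11. The Gata, Runx, Tead and Nfi list gave 2 higher and 4 lower of 18, and the list of Grainyhead, Ap2, Ovol, Trp63 and Snai genes gave 4 higher and 4 lower of 21. Polycomb group 1 and chromobox genes gave 7 higher and 4 lower of 24. Among secreted proteins, serpins and kallikreins gave 3 higher (5 with DESeq2 and 8 with no filter) and 5 lower of 33, and keratins gave 4 higher and 4 lower of 27 (9 lower with no filter). The families of FGF, EGF, VEGF and PDGF genes gave 4 higher and 9 lower of 40. Transmitter-gated channels and purinergic receptors gave 1 higher and 5 lower of 17, with 3 lower without telogen replicate 3, early anagen replicate 2 or early anagen replicate 3.

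Gene models that GENCODE M21 lists as still to be checked by experiment gave 6 higher (0.7%) and 60 lower (6.9%) of 868 tested. Both shares were under the background. Their median log2 fold change was -0.65, of the same sign as that of the long noncoding genes. The shares of all counts taken by the top 50 genes were 23.1 to 26.2% in telogen and 18.8 to 22.4% in early anagen, and those of mitochondrial ribosomal RNA were 7.52 to 12.3% and 8.13 to 11%.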
